A study of Rattus norvegicus with 7 samples.

Results

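Fos, Fosb, Fosl1, Fosl2, Jun, Junb, Jund, Egr1, Atf3 and Atf7 encode the subunits of the transcription factor AP-1, the stress factor ATF3 with its relative ATF7, and the immediate-early regulator EGR1. They were taken as every probe whose gene name in the array files equals one of these 10 symbols, which gave 15 of the 45598 probes of the array, for 10 of 17582 named genes. RNA came from NR8383, a rat alveolar macrophage line established by lung lavage. Cells exposed to 2 µg/mL of uncoated zinc oxide nanoparticles (ZnO NPs, NM110) for 4 h gave 3 arrays, and unexposed control cells gave 4 arrays at the same time point. Both groups were kept without fetal bovine serum during the exposure. The dose is that of the sample labels, while the methods of the study give 4 µg/mL. One cell line without genetic change was used, and every array was a biological replicate of the one-color Agilent rat design.

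AP-1 is a dimer of basic leucine zipper proteins, built from a Fos protein and a Jun protein or from 2 Jun proteins, and ATF proteins can take the place of either. MAP kinases and serum response factor switch on Fos, Jun and Egr1 within minutes of growth factors, serum, metals or oxidants, without new protein synthesis, and the transcripts usually fade within hours. In macrophages these genes are known for the early response to microbial products, and ATF3 is known to restrain inflammatory genes.

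The arrays gave few changes against which to read these genes. Of 20065 probes compared with limma, 10 had an adjusted p under 0.05, all of them higher in ZnO-exposed cells, and 1186 (5.91%) had an unadjusted p under 0.05. The metallothionein genes Mt2A and Mt1a, which bind zinc, and the zinc exporter gene Slc30a1 were among them, with log2 fold changes of 5.83, 3.40 and 1.37 (limma, adjusted p = 3.94e-06, 3.79e-05 and 0.00281). Markers of macrophages were well above background on all arrays for 9 of 10 genes, and Marco, a scavenger receptor of alveolar macrophages, was on none. Of the 26 markers of epithelium, fibroblasts, endothelium, lymphocytes and neutrophils on the array, 8 were well above background on all arrays. Most of the 26 were too dim to be tested. None of those tested differed at an adjusted p under 0.05 (limma), against 0.0599% of all named genes tested. All arrays were on a single slide, where the first of the 2 position indices was 2 for each ZnO array and 1 for each control array, so that exposure and this position cannot be told apart. The quality report of the scanner software marked ZnO replicates 2 and 3 and control replicates 3 and 4 for evaluation. With 3 and 4 arrays, precision is limited by their number.

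No AP-1, ATF or immediate-early member passed the test after 4 h of ZnO NPs. Of the 10 genes, 7 (Fosb, Fosl2, Jun, Junb, Jund, Atf3 and Atf7) had a probe that was detected, meaning flagged as well above background by the scanner software, on each array of the ZnO group, the control group or both, and these were tested. At an adjusted p under 0.05 (limma), none of the 7 genes was called, against 0.0498% of all probes, and none met the stricter thresholds of the methods, against 0.0199%. Read through the brightest probe of each gene, 0 of the 7 reached an unadjusted p under 0.05 either, where 3.06% of probes did so upwards and 2.85% downwards. None of the 12 tested member probes moved by more than 1.5-fold, as 1.09% of all tested probes did. For Fosl2, Jun, Junb, Jund and Atf7, 5 of the 7, the 95% interval of the fold change stayed inside 1.5-fold in both directions. For Atf3 and Fosb it reached beyond. The remaining 3 genes (Fos, Fosl1 and Egr1) were too dim to be tested.

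**Figure D1:**
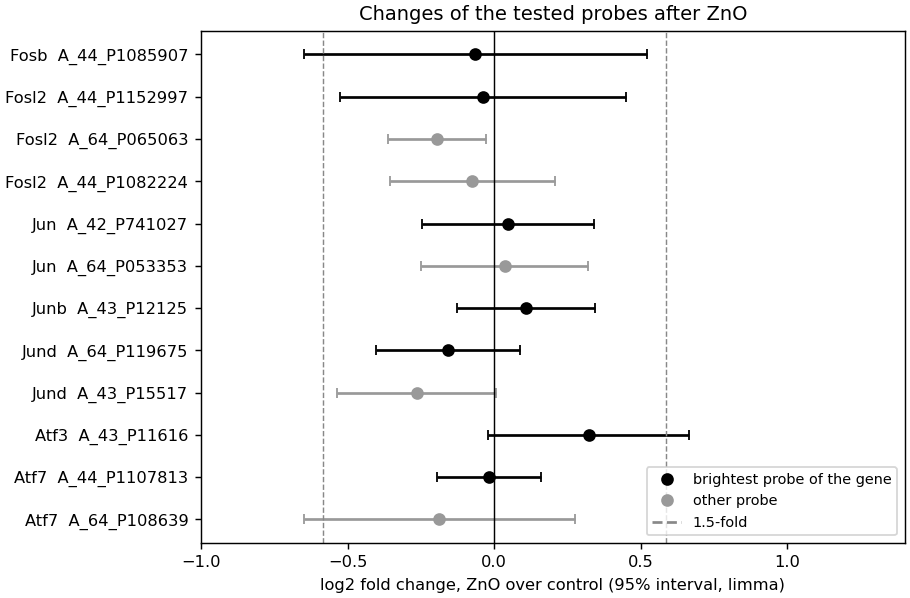
Log2 fold change of each tested probe, ZnO over control (x axis), with its 95% interval from limma, for 7 genes and 12 probes. Black points are the brightest probe of a gene and grey points its other probes, and the dashed lines mark 1.5-fold. Only the intervals of Atf3, Fosb and the second Atf7 probe cross a dashed line.

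Probe sequences show how far 1 pair of probes of related genes differs and how often 1 gene was read. Jun and Junb are close relatives, so that 1 probe of each was laid beside the other. The Jun probe shown is not its brightest, and the brightest, which gives the Jun value below, was not compared. Whether RNA of either gene bound the probe of the other was not measured. The Jun probe A_64_P053353 lies at chr5:115359410-115359469 (rn4, minus strand) and the Junb probe A_43_P12125 at chr19:24832781-24832840 (rn4, plus strand). They are shown with capitals for the bases that match in the best placement without gaps, 29 of 47 overlapping bases:
Jun A_64_P053353: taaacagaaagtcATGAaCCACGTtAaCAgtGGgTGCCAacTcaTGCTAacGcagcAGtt
Junb A_43_P12125: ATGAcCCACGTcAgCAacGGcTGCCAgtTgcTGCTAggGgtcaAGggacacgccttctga
The match covers 48.3% of the length of a probe. Fosl2 was read by 3 probes that the files leave unplaced on the genome, and these are shown because 2 of them carry the same 60 bases under different names:
Fosl2 A_64_P065063: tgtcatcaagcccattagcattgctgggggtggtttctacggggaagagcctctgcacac
Fosl2 A_44_P1082224: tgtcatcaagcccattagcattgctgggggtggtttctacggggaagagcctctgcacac
Fosl2 A_44_P1152997: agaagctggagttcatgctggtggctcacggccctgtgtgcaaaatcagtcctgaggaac

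Levels are given as log2 intensities after background correction, relative to the 75th percentile of the array, so that 0 is the brightness of a spot at that percentile. Brightness depends on the probe, and levels of different genes were not set against each other. A change in the share of responding cells and a change in RNA per cell cannot be told apart in RNA of a whole culture.

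Jun, the most studied AP-1 subunit and a target of the JNK kinases, did not pass the test. Its brightest probe had levels of -0.16, -0.25 and 0.02 in ZnO-exposed cells, against 0.05, -0.15, -0.17 and -0.44 in control cells. Control replicate 1 was the highest array and control replicate 4 the lowest, with the 3 ZnO arrays between them. The log2 fold change from limma was 0.047 (SE 0.13), with an adjusted p of 0.999, and the 95% interval ran from a fold of 0.843 to 1.27. The second probe of Jun, shown above, gave 0.036 (SE 0.12). The brightest probe was printed in 10 spots on each array. The SD over these spots was between 0.033 and 0.095, against an SD over arrays of 0.14 in ZnO-exposed cells and 0.20 in control cells (n = 3 and 4), so that most of the spread of Jun lay between arrays.

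Junb, a Jun protein that often restrains growth, had levels of -3.54, -3.59 and -3.55 in ZnO-exposed cells. In control cells they were -3.51, -3.58, -3.90 and -3.68. The ZnO arrays lay inside the range of the control arrays and closer together than these. The log2 fold change from limma was 0.11 (SE 0.10), with an adjusted p of 0.971 and an interval from 0.916- to 1.27-fold.

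Jund, a Jun protein that is expressed steadily in most cells, averaged 0.57 ± 0.095 in ZnO-exposed cells and 0.72 ± 0.16 in control cells (SD, n = 3 and 4) by its brightest probe. The single levels were 0.63, 0.46 and 0.60 in ZnO-exposed cells, against 0.60, 0.71, 0.62 and 0.96 in control cells, and the groups overlapped. The difference did not pass the test (limma, log2 fold change -0.16 with SE 0.11, adjusted p = 0.933). Its other probe gave -0.26 (SE 0.12, adjusted p = 0.849), with levels of -4.18, -4.29 and -4.05 in ZnO-exposed cells, against -3.81, -4.12, -3.71 and -3.99 in control cells. The groups overlapped there too, with 1 control array among the ZnO arrays.

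Fosl2, also called Fra-2, is a Fos protein without a strong activation domain. It had levels of -1.30, -1.81 and -1.89 in ZnO-exposed cells, against -1.69, -1.78, -1.89 and -1.16 in control cells, by its brightest probe. ZnO replicate 1 and control replicate 4 were the high arrays, and the groups overlapped throughout. The log2 fold change from limma was -0.038 (SE 0.21), with an adjusted p of 0.999 and a 95% interval from 0.694- to 1.37-fold. Probe A_64_P065063 was the only tested member probe whose arrays did not overlap, as 3.59% of all tested probes were in the same direction. Its levels were -2.58, -2.77 and -2.69 in ZnO-exposed cells, against -2.53, -2.45, -2.45 and -2.51 in control cells. It was also the only one of the 12 tested member probes at an unadjusted p under 0.05 (limma, log2 fold change -0.19 with SE 0.072, adjusted p = 0.811). Probe A_44_P1082224, of the same sequence, had levels of -2.52, -2.95 and -2.72 in ZnO-exposed cells, against -2.51, -2.80, -2.72 and -2.59 in control cells, which overlap. It gave a log2 fold change of -0.075 (SE 0.12). On single arrays the readings of these identical probes lay between 0.023 and 0.35 apart, with a median of 0.080, which is the scatter of the measurement itself.

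Fosb, a Fos protein best known from neurons, was dim but detected on all arrays. Its levels were -4.56, -4.44 and -4.04 in ZnO-exposed cells. In control cells they were -4.24, -4.31, -4.84 and -3.73, so that the control arrays enclosed the ZnO arrays. The log2 fold change from limma was -0.064 (SE 0.25), with an adjusted p of 0.999, and the interval, from 0.638- to 1.43-fold, was the widest of the 7 genes.

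Atf3, a stress-induced bZIP factor that is activated by many toxic and metabolic insults, showed the largest difference of the tested members, and it did not pass the test. Its levels were -1.03, -0.89 and -0.69 in ZnO-exposed cells, against -1.34, -1.15, -1.41 and -0.87 in control cells. All 3 ZnO arrays lay above control replicates 1, 2 and 3, while control replicate 4 lay above 2 of the 3 ZnO arrays. The means were -0.87 ± 0.17 in ZnO-exposed cells and -1.19 ± 0.24 in control cells (SD, n = 3 and 4). The log2 fold change from limma was 0.32 (SE 0.15, adjusted p = 0.868), a fold of 1.25 with a 95% interval from 0.986 to 1.58. Each array carried 2 spots of the Atf3 probe. The files place only 33 of its 60 bases, at chr13:107191582-107191614 on rn4. In none of 21 other settings did the value drop below 0, and it ran from 0.21 to 0.43, the highest being without control replicate 4. Several of these settings left Atf3 at 0.32, and its value with the replicate block was that without control replicate 4. Its adjusted p ran from 0.253, with array weights, to 1.00.

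Atf7, a constitutive relative of ATF2 that takes part in stress signalling and chromatin silencing, had the smallest difference of the 7 genes when each was read through its brightest probe. The levels were 0.66, 0.43 and 0.56 in ZnO-exposed cells, against 0.59, 0.55, 0.53 and 0.59 in control cells. The log2 fold change from limma was -0.018 (SE 0.075), with an adjusted p of 0.999 and the narrowest interval of the 7 genes, from 0.874- to 1.12-fold. A second probe, designed on another transcript of Atf7, was dim and gave -0.19 (SE 0.20, adjusted p = 0.976). With the tested probes of each gene averaged, Atf7 was at -0.10, and Jun, at 0.041, and Fosb, at -0.064, were closer to 0.

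**Figure D2:**
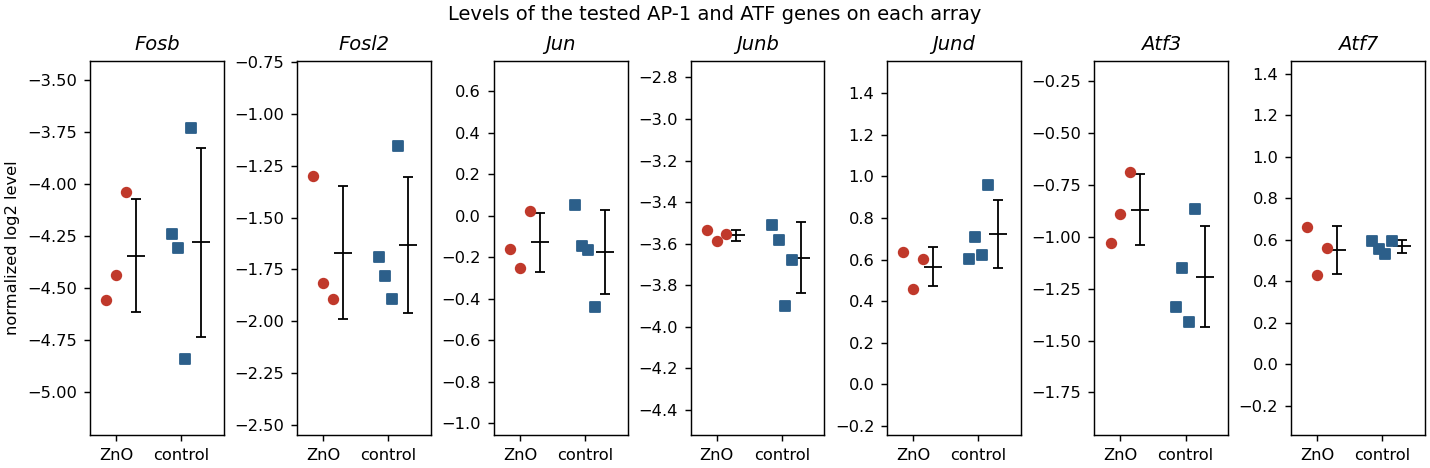
Normalized log2 level (y axis, each panel spanning the same width of 1.8 log2 units around the mean of its gene) of the brightest probe of 7 genes on each array. Red circles are the 3 ZnO arrays, blue squares the 4 control arrays, and black bars the mean ± SD. The groups overlap in every panel, and Atf3 shows the largest gap between the means.

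Of these 7 genes, 3 were above 0 and 4 below it. Junb and Atf3 stayed above 0, and Jund below 0, in all 21 alternative settings, but these are not 21 separate checks. Other filters on dim probes, a changed variance model and keeping outlier spots left their values unchanged. The replicate block gave them the values of the fit without control replicate 4. Junb ran from 0.0099 to 0.21 and Jund from -0.21 to -0.020. None of the 3 was called in any setting, so that a kept sign does not establish a direction. The sign for Fosb, Fosl2, Jun and Atf7 changed in some settings, so that no direction can be read for them.

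The immediate-early genes Fos and Egr1, and the Fos relative Fosl1, lay at or near the background of the arrays in both groups. Fos had intensities of 15.3, 23.7 and 19.8 in ZnO-exposed cells, against 8.09, 16.5, 7.68 and 11.5 in control cells. Its 3 ZnO arrays were above the 4 control arrays on the normalized scale (-6.00, -5.78 and -6.34 in ZnO-exposed cells, against -7.35, -6.50, -7.26 and -6.38 in control cells). Of all probes of the array, 2.10% were separated in this direction and 2.42% in the other. The probe was well above background on 2 of the 3 ZnO arrays, by 1 of its 2 spots on each, and on none of the 4 control arrays. Fitted without the filter on dim probes, the log2 fold change was 0.83 (limma, SE 0.29, unadjusted p = 0.025, adjusted p = 0.967). It was 0.80 after quantile normalization (limma, unadjusted p = 0.034), with the groups still apart. It was 0.11 after normexp background correction, 0.26 with the deposited table of all arrays and 0.93 when spike-in probes set the centre of each array. The groups overlapped in all of these, with an unadjusted p of 0.55, 0.22 and 0.072 (limma). On ZnO replicate 1 the 2 spots of Fos read 8.55 and 27.5, so that the spots of 1 array differed by more than the means of the groups.

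Egr1, a zinc finger factor that is induced with Fos, had intensities of 10.8, 17.8 and 28.2 in ZnO-exposed cells. In control cells they were 3.69, 19.3, 13.9 and 18.3. It was well above background on ZnO replicate 3 alone, and the groups overlapped. Control replicate 4 was the highest array on the normalized scale. Fitted without the filter on dim probes, the log2 fold change of Egr1 was 0.54 (limma, SE 0.63, adjusted p = 0.967), and it was 0.056 after normexp background correction and 0.12 with the deposited table. Fosl1, also called Fra-1, had intensities between 4.63 and 6.26 in ZnO-exposed cells and between 4.08 and 6.34 in control cells, and was well above background on none of the 7 arrays. No fold is given for it.

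**Figure D3:**
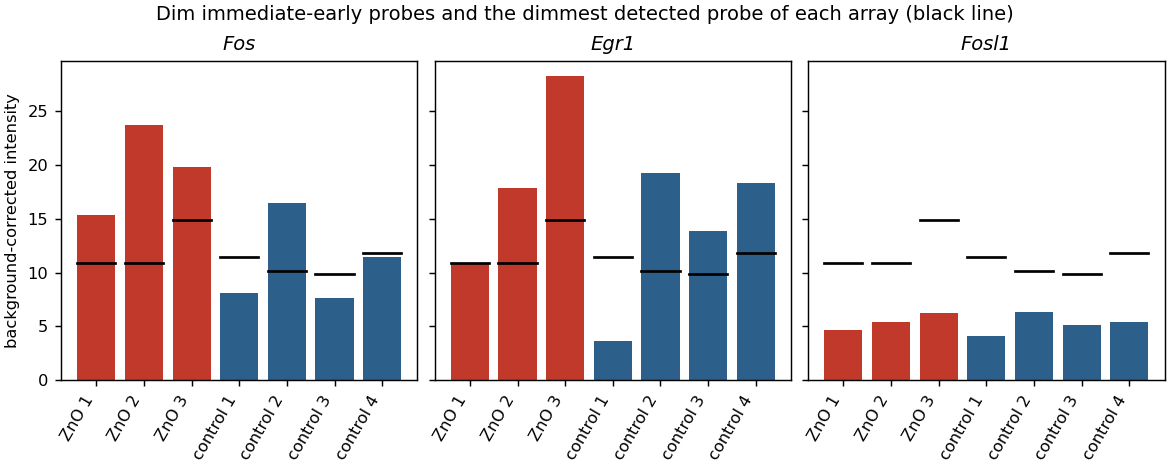
Background-corrected intensity (y axis, arbitrary scanner units) of the Fos, Egr1 and Fosl1 probes on each array, with ZnO arrays in red and control arrays in blue. The black line on each bar is the dimmest probe of that array that the scanner software called well above background, between 9.86 and 14.9. Fos is highest on ZnO replicate 2, at 23.7, Egr1 is highest on ZnO replicate 3, at 28.2, and Fosl1 stays under the line on all arrays.

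Promoter sequence was looked up for the members as a description, in a window of 300 bases, most of them before the gene start (RefSeq, GRCr8), and 7 of 10 genes were found. Fos, Jun and Atf3 were not. The AP-1 site TGANTCA was in 0 of the 7 windows, and in 7.33% of all 33469 windows. The cAMP response element TGACGTCA, to which ATF and CREB dimers bind, was in that of Jund alone, and in 1.83% of all. The CArG box, which serum response factor binds, was in that of Egr1 alone, which held 2, and in 1.64% of all. The core of the metal response element, TGCACNC or TGCGCNC, was in 5 of the 7 (Fosl1, Fosl2, Jund, Egr1 and Junb) and in 24.2% of all. Both strands were searched, and none of these patterns is part of another. The stretches with the CArG boxes and with the cAMP response element are printed because these are the classic inputs to immediate-early and AP-1 genes, with the motif in capitals. The Egr1 stretch runs from 150 to 51 bases before the gene start (chr18:26736928-26737027, plus strand) and that of Jund from 230 to 81 bases before it (chr16:18769852-18770001, minus strand):
Egr1: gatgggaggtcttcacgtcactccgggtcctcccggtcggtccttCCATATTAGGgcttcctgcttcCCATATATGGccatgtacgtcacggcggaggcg
Jund: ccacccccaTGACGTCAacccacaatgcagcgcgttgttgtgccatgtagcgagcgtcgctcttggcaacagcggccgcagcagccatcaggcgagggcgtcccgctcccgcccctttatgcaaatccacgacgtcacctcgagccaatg

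No partner of AP-1 passed the test. This list of bZIP proteins (BATF, MAF, ATF, CREB and C/EBP factors) had 22 tested genes of 24. None of the 22 was called by limma at an adjusted p under 0.05, against 0.0599% of all named genes. None had an unadjusted p under 0.05 either, against 2.73% of named genes upwards and 2.83% downwards. Their log2 fold changes ran from -0.34 to 0.19, with a median of -0.011, against -0.0080 for all named genes tested. The smallest p belonged to Ddit3, which encodes the stress factor CHOP, at 0.19 (adjusted p = 0.868), Mafg, a small MAF protein that pairs with NRF2, at 0.16 (adjusted p = 0.894) and Atf6b, a sensor of the endoplasmic reticulum, at -0.12 (adjusted p = 0.915). For Ddit3 the levels were 1.77, 1.68 and 1.60 in ZnO-exposed cells, against 1.42, 1.35, 1.62 and 1.56 in control cells, and the groups overlapped.

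Other immediate-early genes were in part too dim to be tested, as Fos and Egr1 were. Of 40 genes of that list, 26 were tested, and 13 of the other 14 were well above background on no array, among them Dusp1, a phosphatase that switches off MAP kinases, Zfp36, which destabilizes cytokine mRNAs, and Arc and Npas4, activity genes of neurons. Over the whole array 44.0% of probes were tested, a share of probes, while a gene of the list counted with any tested probe. None of the 26 was called by limma at an adjusted p under 0.05, against 0.0599% of all named genes. Id2 alone had an unadjusted p below 0.05, upwards, as 2.73% of all named genes had. Downwards none had, against 2.83%. The median log2 fold change was 0.068, against -0.0080 for all named genes tested. Id2, an inhibitor of basic helix-loop-helix factors, had levels of 2.35, 2.36 and 2.55 in ZnO-exposed cells, against 1.97, 2.11, 2.13 and 2.02 in control cells, with no overlap (limma, log2 fold change 0.36 with SE 0.081, adjusted p = 0.487). Of all tested probes, 3.79% were separated upwards. The zinc finger factor gene Klf6 was at 0.22 (adjusted p = 0.904) and the stress kinase gene Plk3 at 0.17 (adjusted p = 0.927).

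Nearly all listed genes upstream of AP-1 were bright enough to be tested, as RNA only, and kinase activity was not measured. Of 34 genes of the MAP kinase and serum response factor inputs, 33 were tested. None was called by limma at an adjusted p under 0.05, against 0.0599% of all named genes, and the median log2 fold change was 0.0029. Unadjusted, 1 of the 33 had a p below 0.05 upwards and 1 downwards, against 2.73% and 2.83% of all named genes. Map2k6, a kinase that activates p38, was at -0.36 (adjusted p = 0.825), and Map2k4, which activates JNK and p38, at -0.20 (adjusted p = 0.849). The arrays of both kinases overlapped between the groups.

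Genes that AP-1 is known to control included the largest differences of the 4 lists, in both directions, although none passed the test. Of 24 genes, 16 were tested, and limma called none of them at an adjusted p under 0.05. Unadjusted, 3 of the 16 had a p below 0.05 upwards and 1 downwards, where 2.73% of all named genes did so upwards and 2.83% downwards, and the median was 0.027. Of named genes, 0.0599% were called. Hmox1, which encodes the heme-degrading enzyme heme oxygenase and is controlled by NRF2 as well as AP-1, had levels of 4.32, 4.53 and 4.92 in ZnO-exposed cells, against 3.08, 3.57, 3.27 and 3.93 in control cells. Every ZnO array lay above every control array, with a log2 fold change of 1.13 (SE 0.22, adjusted p = 0.417). Ccl2, a monocyte chemokine gene, was at 0.87 (SE 0.24, adjusted p = 0.654), with overlapping groups. Ccl4, which encodes another chemokine, had levels of -0.44, -0.86 and -0.76 in ZnO-exposed cells, against -0.26, -0.19, -0.37 and -0.23 in control cells, with every ZnO array below every control array (log2 fold change -0.42 with SE 0.11, adjusted p = 0.646). Of the 16 genes, 2 were separated in this way upwards and 2 downwards. Of all tested probes, 3.79% were separated upwards and 3.59% downwards. Il6 and Ptgs2, further known AP-1 targets, were well above background on none of the 7 arrays.

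**Figure D4:**
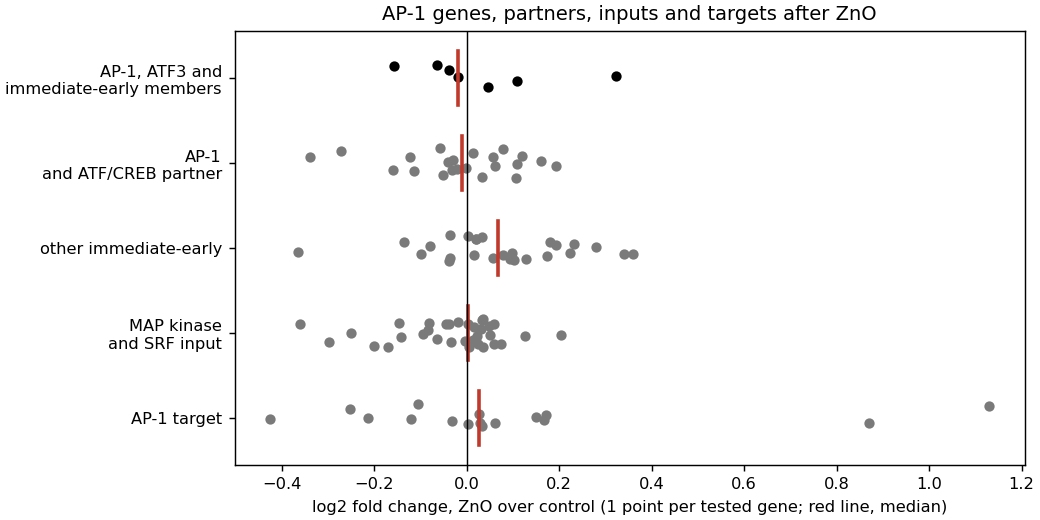
Log2 fold change, ZnO over control (x axis), with 1 point for each tested gene of the members (7 genes), the AP-1 and ATF/CREB partners (22), the other immediate-early genes (26), the MAP kinase and serum response factor inputs (33) and the AP-1 targets (16). Vertical red lines are medians. Nearly all points lie within 0.5 of 0, and the 2 points furthest to the right are the targets Hmox1 at 1.13 and Ccl2 at 0.87.

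Genes with a pattern like that of Jun or Atf3 were sought among the 10011 named genes tested, by Pearson's r over the 7 arrays, as a description. The most similar to Jun were Mesdc1 (r = 0.97), Msl2 (r = 0.95) and Tbx2 (r = 0.94), and 29 genes had an r of at least 0.9. Those most similar to Atf3 were Upk3a (r = 0.98), Sfxn4 (r = 0.97) and Coro1a (r = 0.97), and 71 genes had an r of at least 0.9. For Fosb, Fosl2, Junb, Jund and Atf7 this number of genes was 71, 100, 35, 95 and 34. The named genes are the highest of 10011 over only 7 arrays, and their likeness was not tested. For Fos and Egr1, which were not tested, no such genes are named.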

How the data were processed

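The authors labelled total RNA with Cy3, hybridized 1 array for each replicate and took spot values with Feature Extraction 11.0.1.1 of Agilent. The deposited files hold, per spot, an intensity that was background-subtracted and detrended within the array, with no normalization between arrays. The authors' flags for spots (well above background, outlier) are marked 0 or 1. The deposited table of all arrays holds intensities that equal the scanner's median signal in 100% of spots. Log2 intensities were set relative to the 75th percentile of their array, taken over the 58717 non-control spots, since the methods name percentile normalization, and spots of a probe were averaged without outliers. A probe counted as well above background when at least 0.5 of its spots were flagged so. Probes that met this on every ZnO array, every control array or both were compared with limma 3.58.1 (R 4.3.3), and p-values were adjusted over all of them by Benjamini-Hochberg. A gene takes its brightest tested probe. The methods' thresholds (adjusted p under 0.001, fold over 1.5) were also counted. The fit was tested on simulated data. Python 3.11.15, pandas 2.3.3, numpy 2.4.6 and matplotlib 3.10.9 were used.

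Members and lists were chosen with earlier results of these data known. Named genes are the 10 members, the 3 genes with the smallest p of each of the 4 lists with any gene called, the 3 genes most like Jun and Atf3, and Mt1a, Mt2A and Slc30a1. An item that this rule names is not reported here. Other genes in the text were chosen after their values were seen. Gene names are those of the files, and 1 of the listed genes (Batf2) was not found among them. The alternatives were centring on the median or on the spike-in probes, quantile normalization, normexp background correction (offset 50), the deposited table, other filters on dim probes, other variance models, array weights, outlier spots kept, a replicate block, each array left out in turn, and averaging a gene's tested probes. A slide position block, on the second position index, and a fit without the arrays marked for evaluation were added after seeing the data. The first index, which goes with exposure, could not be adjusted for. Control replicate 1 was alone at its second index, so that this block gave the member values of the fit without that array.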

Additional observations from a re-analysis of the deposited data

How the results depend on the processing

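None of the 7 tested members was called at an adjusted p under 0.05 in any setting. This count follows the probe that stood for each tested gene, so that Fos, Fosl1 and Egr1 were not part of it. No tested gene of the partner, kinase or target lists was called in any setting either. The fit without the arrays marked for evaluation left 1 ZnO array, assumed to vary like the 2 control arrays, so that its calls are not read. Nr4a2, another immediate-early gene, had a log2 fold change of -1.18 there, against -0.37 in the main fit. In the remaining settings none of the other immediate-early genes was called. Over all probes, 10 were called. The count dropped to 5 when spike-in probes set the centre, and was 5 with no filter on dim probes, 15 with array weights, 4 with the replicate block, 1 with the slide position block, 4 at the methods' thresholds and 338 without the arrays marked for evaluation. It ran from 7 to 14 with each array left out in turn.

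The sign of 4 small values changed, and the cause was not tested. Centring on spike-in probes, which moved the median of all tested probes to 0.091, put Fosb at 0.033, Fosl2 at 0.059 and Atf7 at 0.080. With normexp background correction Atf7 was at 0.011, and with array weights Jun was at -0.054. With the replicate block Fosb was at 0.12, Fosl2 at 0.12 and Jun at -0.041. Without the arrays marked for evaluation Fosl2 was at 0.43, Jun at -0.11 and Atf7 at 0.088. With each array left out in turn, Fosb ran from -0.25 to 0.12 (above 0 without ZnO replicate 1 or control replicate 4) and Fosl2 from -0.22 to 0.12 (above 0 without ZnO replicate 2, ZnO replicate 3 or control replicate 4). Jun ran from -0.041 to 0.12 (below 0 without ZnO replicate 3 or control replicate 4) and Atf7 from -0.073 to 0.043 (above 0 without ZnO replicate 2).

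The samples share only a replicate number: deviations of the same-numbered ZnO and control arrays correlated at -0.089, 0.21 and -0.24, and the replicate block lowered the count of called probes to 4. Control replicate 4 has no partner in this pairing. By the looser detection flag of the scanner software, 14 of the 15 member probes would have been tested in place of 12. For Fos, Fosl1 and Egr1, signal close to background limits what can be compared.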
